A study of Mus musculus with 12 samples.

Results

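Transforming growth factor β (TGFβ) changed the expression of adventitial fibroblasts grown out of the descending aorta of C57BL/6 mice, the connective tissue cells of the adventitia, the outermost coat of a vessel. The data were 6 RNA-seq libraries out of the 12 of the series: 3 descending control cultures at 0 ng/ml TGFβ and 3 descending cultures at 10 ng/ml TGFβ for 48 h, chosen by their sample labels alone. The mice were wild type and, by the labels, 14 weeks old. The cells were primary cultures that the labels give as passaged once, while the text of the study names different ages and passage numbers in different places. Whether the 3 cultures of a group came from separate animals is not stated, so p-values measure the spread between these cultures, which may be technical. The remaining 6 libraries, from the ascending aorta with the same 2 treatments, were used to show where the descending response differed, in the scaling of the levels and in alternative fits.

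TGFβ ligands are secreted in a latent complex bound to latent TGFβ binding proteins of the matrix. The released ligand brings together the type 1 and type 2 receptors, which phosphorylate SMAD2 and SMAD3, and these enter the nucleus with SMAD4. In fibroblasts the pathway is known for inducing matrix genes and the contractile genes of the myofibroblast, and for inducing its own inhibitors, such as SMAD7 and SKIL.

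Library totals ran from 16250126 to 23892943 counts. The descending control replicate 3 stood apart from the other 5 libraries. It detected 13031 genes where the other descending libraries detected 19337 to 20931. The mitochondrial share was 11.02% there and between 0.760 and 1.03% elsewhere. The biological coefficient of variation, the relative spread between cultures that edgeR estimates, was 63.3% among the 3 controls, 4.82% without replicate 3 and 4.76% among the TGFβ cultures. Counts of genes that passed are therefore given without this library (5 libraries) and with it (6 libraries), and a log2 fold change with no fit named is that of 5 libraries. Levels are normalized CPM, counts relative to the library total scaled with TMM over the 12 libraries.

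With 5 libraries, 7576 of 14311 genes passed (52.9%), 3811 higher and 3765 lower with TGFβ. With 6 libraries, 1115 of 13825 passed (8.07%), 496 higher (3.59%) and 619 lower (4.48%). All of these 1115 genes also passed with the same sign with 5 libraries, a comparison that shares 5 of its libraries. They were 14.7% of the genes that passed with 5. Beyond a log2 fold change of 1, 708 genes (4.95%) rose and 1201 (8.39%) fell with 5 libraries. Control replicate 3, which that fit did not use, lay below all 3 TGFβ libraries for 644 of these 708 genes (90.96%) and above all 3 for 800 of the 1201 (66.6%), while it lay below all 3 for 330 of the 1201 (27.5%). Among the 6735 genes that did not pass, it lay below all 3 for 3832 (56.9%) and above all 3 for 2467 (36.6%). Of the 14311 genes tested, 2288 had no count in replicate 3, against 18 to 36 in each of the other libraries. The share of 52.9% is the background against which the count of each gene list is read.

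Fibroblast markers were present in all 6 libraries, with a summed level of 14431 to 15391 normalized CPM in control and 24063 to 26248 with TGFβ, carried by Col1a1 and Col1a2. Of these 10 markers, 7 fell and 3 rose with 5 libraries, and 5 fell and 2 rose with 6. Pdgfra went from 372, 380 and 362 to 90.5, 78.5 and 85.2 and Dcn, decorin, from 112, 118 and 273 to 39.4, 39.1 and 35.8. Of the 10 endothelial markers, Pecam1 and Cdh5 did not exceed 0.26 normalized CPM in any descending library, and Tie1 and Cldn5 were at 0 counts. The list summed to 23.9 to 27.6 in control and 13.4 to 16.04 with TGFβ, most of it Tek, a receptor of angiopoietins, which went from 23.8, 24.8 and 23.9 to 7.70, 9.27 and 8.69. Of the 5 endothelial markers tested, 2 rose and 1 fell with 5 libraries, and 1 rose and 1 fell of 4 with 6. The 7 T and B lymphocyte markers summed to at most 0.22. Macrophage markers were low, at 31.2 to 54.7 in control and 14.8 to 29.3 with TGFβ, and led by Lyz2, the lysozyme gene. Of the 10 macrophage markers tested, 6 fell and 0 rose with 5 libraries, and 0 of 8 passed with 6. Smooth muscle markers summed to 224 to 279 in control and 431 to 458 with TGFβ. Markers of heart and skeletal muscle summed to 5.41 to 8.89 in control and 56.4 to 74.2 with TGFβ, nearly all of it Acta1, the skeletal muscle actin. Pericyte markers summed to 149 to 347 in control and 549 to 619 with TGFβ, and mesothelial markers to 24.1 to 27.1 and 26.4 to 29.0. Of the 4 pericyte markers tested, 3 rose and 1 fell with 5 libraries, and 2 rose and 1 fell with 6. Cspg4 went from 170, 170 and 62.5 to 381, 438 and 453, and Notch3 fell from 136, 138 and 69.4 to 47.8, 47.7 and 43.8. Schwann cell markers summed to 19.9 to 34.9 in control and 13.6 to 16.3 with TGFβ, and Sox10 was at 0 counts. Of the 4 Schwann cell markers tested, 1 rose and 2 fell with 5 libraries, and 0 passed with 6. The part of other cell types in the results was not tested, and in bulk RNA fewer cells of a type and less RNA per cell cannot be told apart.

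The promoter windows of Acta2 and Ada, which rose, and of Adm and Fmo2, which fell, run from 250 bases before to 50 bases after the start of the gene (RefSeq, GRCm38.p6), and are given 5′ to 3′ on the strand of the gene to show which of 4 motifs of TGFβ-related factors they hold. Acta2 lies at chr19:34255324-34255623 on the minus strand, Ada at chr2:163750190-163750489 on the minus strand, Adm at chr7:110627407-110627706 on the plus strand and Fmo2 at chr1:162898709-162899008 on the minus strand. Capitals mark a match.
Acta2: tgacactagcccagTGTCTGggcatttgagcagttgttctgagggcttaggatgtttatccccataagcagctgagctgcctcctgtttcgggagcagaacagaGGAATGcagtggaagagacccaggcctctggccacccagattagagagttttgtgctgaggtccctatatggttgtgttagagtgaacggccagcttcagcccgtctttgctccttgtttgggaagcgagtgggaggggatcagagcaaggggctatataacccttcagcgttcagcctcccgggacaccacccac
Ada: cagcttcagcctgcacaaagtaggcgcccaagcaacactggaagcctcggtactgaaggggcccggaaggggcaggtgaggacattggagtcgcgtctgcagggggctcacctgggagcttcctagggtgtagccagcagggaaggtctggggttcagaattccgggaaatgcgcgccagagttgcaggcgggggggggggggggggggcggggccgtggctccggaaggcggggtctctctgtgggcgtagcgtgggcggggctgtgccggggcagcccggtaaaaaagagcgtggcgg
Adm: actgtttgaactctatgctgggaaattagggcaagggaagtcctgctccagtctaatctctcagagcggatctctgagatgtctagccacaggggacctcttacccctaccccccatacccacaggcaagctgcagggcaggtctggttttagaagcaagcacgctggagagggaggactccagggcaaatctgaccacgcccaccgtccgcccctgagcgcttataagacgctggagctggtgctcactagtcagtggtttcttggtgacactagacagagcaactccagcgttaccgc
Fmo2: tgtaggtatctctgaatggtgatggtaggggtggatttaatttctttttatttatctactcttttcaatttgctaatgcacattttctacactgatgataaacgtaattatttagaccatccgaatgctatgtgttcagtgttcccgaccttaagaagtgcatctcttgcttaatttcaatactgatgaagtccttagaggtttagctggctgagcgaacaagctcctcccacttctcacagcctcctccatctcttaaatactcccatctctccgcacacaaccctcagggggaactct

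The motifs searched on both strands were CAGACA (SMAD), TGANTCA (AP-1), CATTCC (TEAD) and the CArG box of serum response factor. The CArG box was searched only in its strict form CCWWWWWWGG, where W is A or T. In these exact forms, the Acta2 window held the SMAD letters 236 bases and the TEAD letters 146 bases before the start. Both were on the opposite strand. The other 3 windows held none of the 4 forms. The Acta2 window also holds ccctatatgg and ccttgtttgg, which each differ from the strict CArG form by 1 letter. Such variants were not searched for in any window. Among all 32851 windows, 21.0% held the SMAD letters, 7.81% AP-1, 14.7% TEAD and 1.63% the CArG box. Of the 482 windows of genes that rose by more than 1, 23.9% held SMAD, 8.30% AP-1, 17.8% TEAD and 2.90% the CArG box. Of the 823 windows of genes that fell by more than 1, the shares were 15.7, 7.53, 13.7 and 0.851%, and of the 10466 windows of all genes tested 15.8, 4.95, 12.1 and 1.36%. These are descriptions with no test, and a match is not a binding site.

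**Figure D1:**
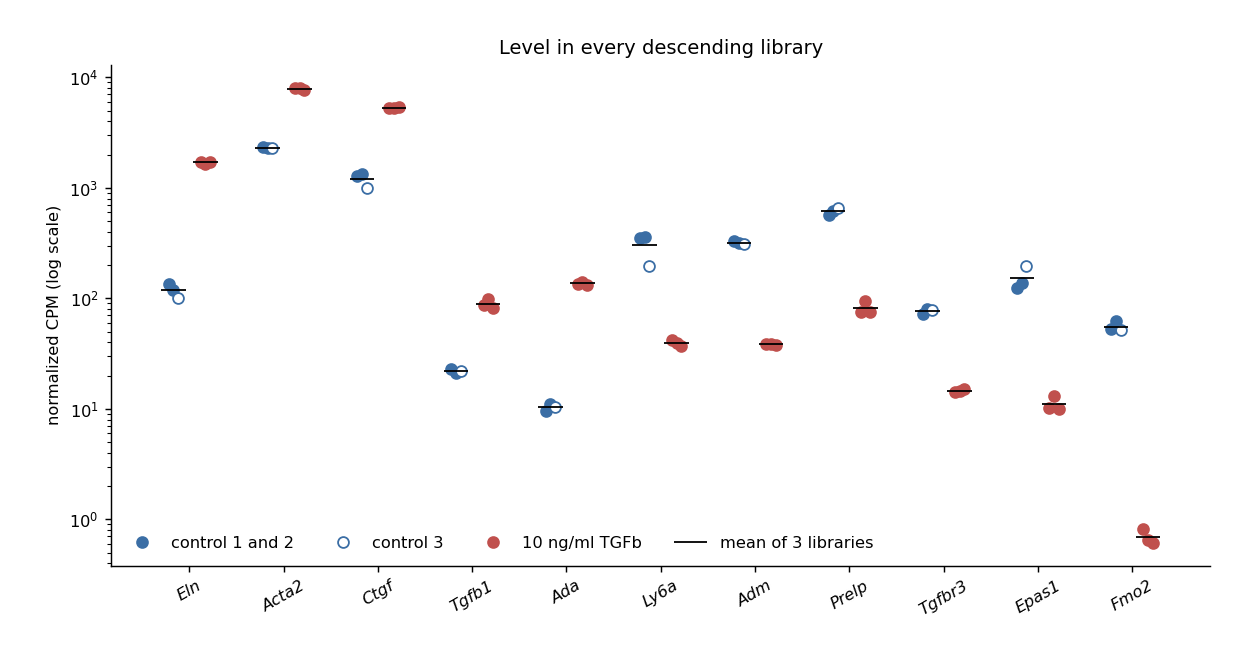
Normalized CPM (log scale) of 11 genes in the 6 descending libraries. Filled blue points are control 1 and 2, open points control 3, red points the TGFβ cultures and black lines the mean of 3 libraries. The 11 genes were picked from the named genes and do not stand for all genes tested. Control 3 lies apart from the other controls for some of them.

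Among matrix proteases, Plau, urokinase, fell by 3.32 on the log2 scale while Plaur, its receptor, rose by 2.53, and both passed with 6 libraries. Plat, tissue plasminogen activator, fell by 2.69 with 5 libraries and did not pass with 6 (adjusted p = 0.116). Of 27 matrix proteases and inhibitors tested, 12 rose and 12 fell with 5 libraries, and 6 and 5 of 25 with 6.

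Eln, which encodes elastin (chr5:134702593-134747323, minus strand), stood at 134, 118 and 101 in control and at 1721, 1641 and 1725 with TGFβ. The log2 fold change was 3.75 ± 0.06 with 5 libraries and 3.84 ± 0.15 with 6 (adjusted p = 4.75e-28 and 0.000489). All 3 TGFβ cultures lay far above every control.

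C1qtnf3, a secreted C1q-related protein, had the largest fitted change among the 7 leading rising genes described. It went from 11.05, 11.4 and 4.21 to 635, 732 and 586, a log2 fold change of 5.86 ± 0.09 with 5 libraries. The others of these 7 were Eln, given above, and Wisp1, Itga11 (the collagen-binding integrin α11), Rflnb, Tnfrsf11b (osteoprotegerin) and Rgs4. The last 5 had log2 fold changes of 4.03, 3.39, 3.37, 3.47 and 5.02, of which Rgs4 had 4.36 with 6 libraries. Tnfrsf11b had 3.98 ± 0.87 with 6 libraries, close to the threshold (adjusted p = 0.0478), with control 3 at 1.52 against 18.2 and 21.1. The 8 leading falling genes were Ly6a, Adm, Rspo2, Plpp3, Selenop, Ogn, Thbd and Vegfd, between -2.23 and -3.48. Ly6a (Sca-1) shares 19.0% of its 50-base exon sequences with other genes, mostly Ly6c1, so its value may hold reads of that gene. The same share was 13.5% for Selenop, 46.2% for Fstl3, 35.1% for C1s1, 50.8% for C1ra, 23.4% for Ccnb1, 25.1% for Vcl, 18.7% for Tgm2, 32.8% for Ly6c1 and 17.2% for Ctgf, and these values are uncertain to that extent. These 15 genes were chosen for their p-values, and all passed in both fits by the rule that chose them.

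The 3 TGFβ ligands rose with 5 libraries, and Tgfbr2 and Tgfbr3 fell. Of the 13 genes of ligands, receptors and latent binding proteins, 9 rose and 4 fell with 5 libraries, and 4 rose and 2 fell with 6. Tgfb1 stood at 22.9, 21.3 and 22.1 in control and 86.3, 97.6 and 81.0 with TGFβ, a log2 fold change of 2.00 ± 0.08, and 1.99 with replicate 3 kept (adjusted p = 0.00156). Tgfb3 rose by 0.92 and passed in both fits. Tgfb2 stood at 61.4 and 68.2 in controls 1 and 2, at 153 in control 3 and at 149 to 164 with TGFβ, so that its call at 1.29 was lost with replicate 3 (0.74, adjusted p = 0.295).

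Among the receptors, Tgfbr3, the co-receptor betaglycan, went from 72.5, 80.1 and 78.2 to 14.3, 14.4 and 15.2. It fell by 2.38 ± 0.08 on the log2 scale and by 2.40 with replicate 3. Tgfbr2, the type 2 receptor, fell by 0.81 and passed in both fits. Tgfbr1, the type 1 receptor, had a log2 fold change of 0.39 with 5 libraries and -0.10 with 6, with control 3 at 119 against 50.9 and 58.7. Acvrl1 (ALK1) fell by 0.71 and Eng (endoglin) rose by 0.24 with 5 libraries, and neither passed with 6, at -0.52 and 0.42.

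Of the latent binding proteins, Ltbp2 went from 698, 719 and 333 to 2830.1, 3095 and 3040.3 and Ltbp1 from 143, 140 and 143 to 284, 284 and 292. Both passed in both fits, at 2.08 and 1.02 with 5 libraries. Lrrc32 (GARP), which holds latent TGFβ at the cell surface, had values of 463, 460 and 220 in control and 340 to 402 with TGFβ, and passed only with 5 libraries, at -0.31 against -0.04 with 6.

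Among the SMADs, Smad3 fell by 1.38 ± 0.06 on the log2 scale, from 92.8, 97.2 and 68.6 to 35.4, 36.8 and 36.7, and passed in both fits. Smad2 (-0.03) and Smad4 (-0.10) did not pass in either fit. The inhibitory SMADs went opposite ways with 5 libraries, with Smad7 at 0.61 and Smad6 at -0.56, and neither passed with 6, at 0.89 and -0.25. Of the inhibitors of the pathway, Pmepa1 went from 171, 168 and 201 to 788, 799 and 784, a log2 fold change of 2.22, and Skil and Tgif1 rose by 1.90 and 1.30. All 3 passed in both fits. The whole list of 15 held 6 genes that rose, 3 that fell and 6 that did not pass with 5 libraries, and 4 rose and 1 fell with 6.

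In the BMP branch, 8 of 26 genes rose and 12 fell with 5 libraries, a share of 76.9% called, and 4 rose and 5 fell with 6. Gdf6, a BMP family ligand, went from 3.31, 2.60 and 2.14 to 24.2, 25.8 and 31.1, and Fstl3, which binds activins, rose by 2.06. Inhbb, the activin βB subunit, fell by 2.74, and Grem1, a BMP antagonist, by 1.55. Id4 fell by 1.77 and passed in both fits, while Id2 fell by 1.33 and passed with 5 libraries only.

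Matrix genes did not move together. All 5 lysyl oxidases, which crosslink collagen and elastin, rose with 5 libraries, and 3 of 5 with 6. Loxl2 went from 187, 203 and 253 to 1013, 1022 and 1014, a log2 fold change of 2.39, with 45.0% of its 50-base exon sequences shared, mostly with the gene model Gm21451. Loxl4 and Loxl3 rose by 1.62 and 1.47 in the 5-library fit. Lox, at 5102 and 5416 in controls 1 and 2, 8711 in control 3 and 11203 to 11804 with TGFβ, did not pass with 6 libraries (adjusted p = 0.0879).

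Of the 11 fibrillar collagens, 7 rose and 4 fell with 5 libraries, and 5 rose and 1 fell with 6. Col1a1, the α1 chain of type I collagen, went from 6009, 5943 and 6839 to 12644, 14193 and 14048, with the TGFβ cultures all above every control. Its log2 fold change was 1.19 ± 0.05. Col5a2, Col11a1 and Col2a1 rose by 1.61, 1.84 and 1.94. Col3a1, the type III collagen gene, was at 1971, 1972 and 1256 in control and 1581 to 1678 with TGFβ, and its log2 fold change of -0.26 passed only with 5 libraries and was -0.08 with 6.

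Among the other 20 collagens tested, 10 rose and 7 fell with 5 libraries, and 2 rose and 3 fell with 6. Col12a1 and Col8a1 rose by 1.55 and 1.24 and passed in both fits. Of the type VI collagens, Col6a1 went from 961, 916 and 971 to 268, 285 and 274 and Col6a2 from 641, 587 and 736 to 197, 204 and 186. Col28a1 went from 67.4, 66.9 and 74.8 to 12.3, 11.7 and 10.3, a fall of 2.55. All 3 passed with 6 libraries.

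Around elastin, 7 of 13 elastic fibre genes rose and 5 fell with 5 libraries, and 2 rose and 3 fell with 6. Mfap4, a microfibril protein, went from 7.47, 7.28 and 23.5 to 90.0, 92.8 and 83.9. Efemp1 (fibulin-3) fell by 1.64, and Fbln1 and Mfap2 by 0.92 and 0.99. Fbln2 and Emilin1 rose by 0.44 and 0.46 with 5 libraries and did not pass with 6, at 0.70 and 0.77.

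**Figure D2:**
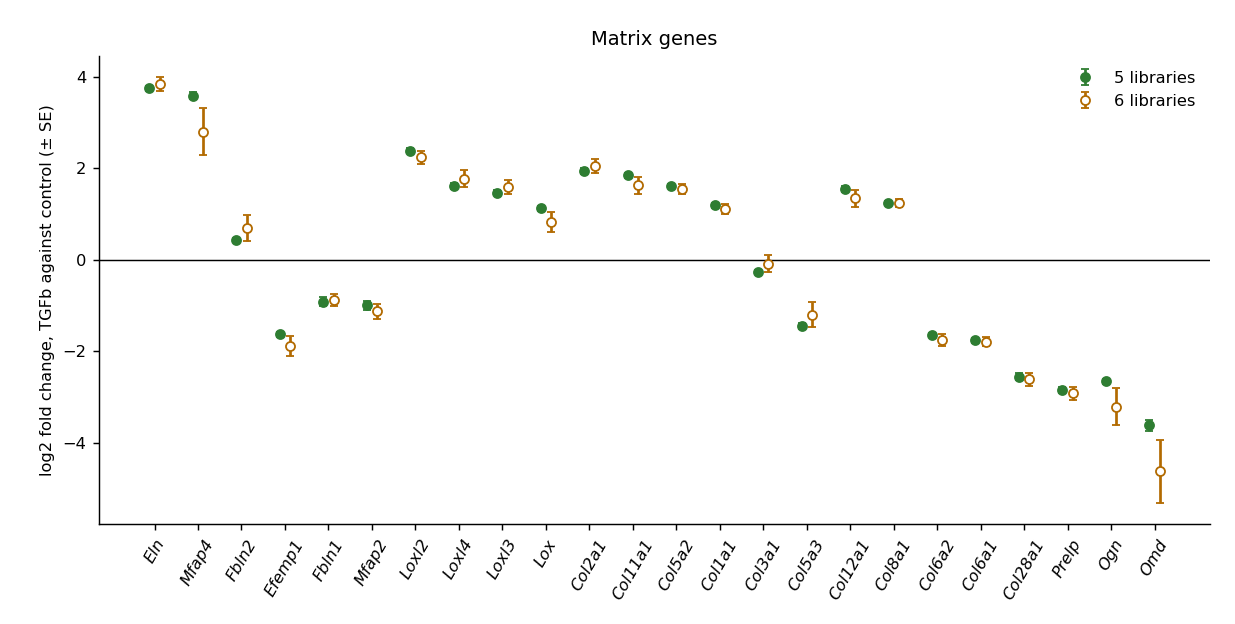
Log2 fold change (TGFβ against control, ± SE) of 24 matrix genes with 5 libraries (filled) and 6 libraries (open). The error bars are wider with control 3 kept, and elastin and the lysyl oxidases lie above 0 while Col6a1, Col6a2 and the small proteoglycans Prelp, Ogn and Omd lie below 0.

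Of 23 proteoglycan and hyaluronan genes, 12 fell and 10 rose with 5 libraries, and 7 fell and 1 rose with 6. Beyond a log2 fold change of 1, 11 fell and 1 rose with 5 libraries. Prelp went from 569, 617 and 662 to 75.5, 93.7 and 76.0. Ogn (osteoglycin) fell by 2.66 and 3.21 in the 2 fits. Omd (osteomodulin) stood at 32.9, 37.2 and 139.9 in control and at 2.69 to 3.11 with TGFβ. Of the rising members, Has2, a hyaluronan synthase, went from 3.62, 4.64 and 2.00 to 16.3, 16.5 and 16.3. Among the matricellular proteins, Cthrc1 went from 11.1, 9.67 and 5.86 to 138, 146 and 131, Ctgf rose by 2.03 and Cyr61 by 1.00. Tgfbi, Nov and Smoc1 fell by 2.70, 2.12 and 1.66. Of 19 matricellular genes, 11 rose and 8 fell with 5 libraries, and 7 and 4 with 6.

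Enzymes that process collagen rose in 13 of 22 cases and fell in 6 with 5 libraries, and 3 and 2 of 21 passed with 6. P3h1, a prolyl hydroxylase, rose in both fits (1.08 and 1.24). Fkbp10 and Serpinh1, collagen chaperones, rose by 1.09 and 0.82 and did not pass with replicate 3 kept. Adamts2, a procollagen proteinase, fell by 1.69.

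Contractile and cytoskeletal genes rose in 24 of 27 cases and fell in 3 with 5 libraries, against 26.6% and 26.3% of all genes tested, and 11 rose and 0 fell with 6 libraries. Acta2, smooth muscle α-actin (chr19:34241090-34255590, minus strand), stood at 2347, 2305 and 2279 in control and 8043, 7948 and 7596 with TGFβ. Its log2 fold change was 1.76 in both fits. Tpm1 rose by 1.68 and Synpo2 by 2.55. Mylk and Vcl passed with 5 libraries only, at -0.45 and -0.25, and had log2 fold changes of -1.13 and -0.12 with 6. Of the 8 smooth muscle markers whose sums are given above, 7 are members of this list (87.5% of the markers and 25.9% of the list), so the sums are not a separate measure. Des, desmin, was the marker that fell with 5 libraries, from 1.87, 1.56 and 1.86 to 0.714, 0.759 and 0.520. Of 13 factors that drive such genes, 7 rose and 3 fell with 5 libraries and 1 rose with 6. Srf, Wwtr1 and Tead1 had log2 fold changes of 0.48, 0.46 and 0.54 with 5 libraries and of 0.46, 0.19 and 0.02 with 6, where none of them passed, while Tead4 rose in both (1.14 and 1.04). The 3 that fell with 5 libraries were Mef2c, Mef2a and Tead2, at -1.08, -0.55 and -0.35. They had -1.58, -1.40 and -0.09 with 6 libraries, where none of them passed.

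Markers of adventitial and universal fibroblasts fell, 15 of 19 with 5 libraries against 4 that rose, and 10 against 1 with 6. Their median log2 fold change was -1.18, against -0.01 over all genes tested. Cd34 went from 48.3, 49.4 and 92.7 to 7.70, 7.04 and 5.91, and Ly6c1 fell by 3.14. Scara5, a scavenger receptor, stood at 25.4, 22.6 and 7.03 in control and at 0.051, 0.217 and 0 with TGFβ, near the level that 3 counts give, so no fold is stated. Of 25 transcription factors of fibroblast activation, 8 rose and 12 fell with 5 libraries, and 1 and 5 of 24 with 6. Epas1 (HIF-2α) went from 123, 139 and 196 to 10.1, 13.1 and 10.0. Snai2 and Prrx1 fell by 2.10 and 1.52 and Ahr by 1.16, and all 3 passed in both fits, though the log2 fold change of Snai2 was -3.28 ± 0.71 with 6 libraries. Meox1, a factor of fibroblast activation that the study names, was at 0.233, 0.434 and 0 in control and 0.663, 0.542 and 0.331 with TGFβ, and did not pass (adjusted p = 0.363).

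**Figure D3:**
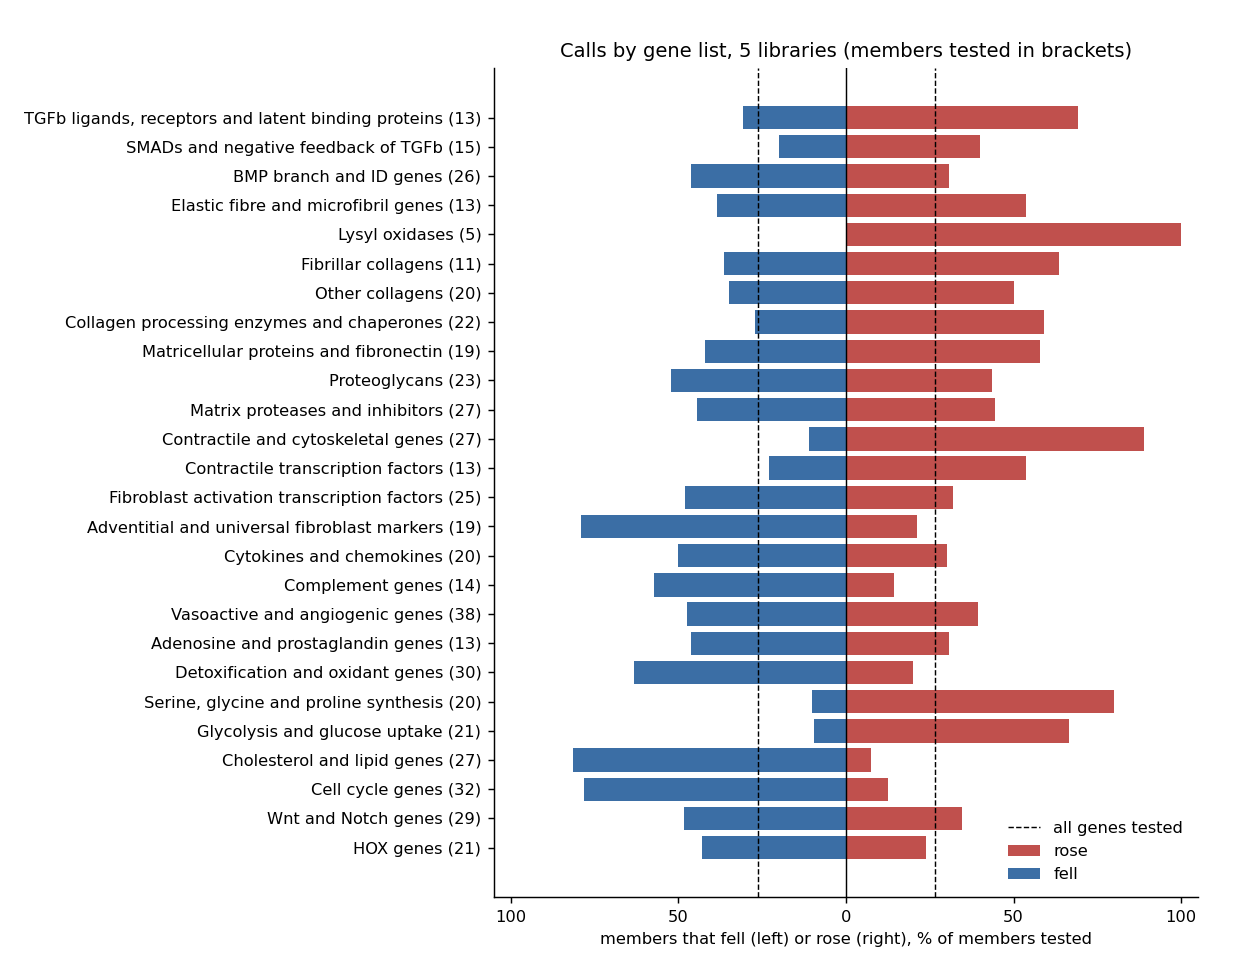
Share of the members tested that rose (right) or fell (left) with 5 libraries, for 26 gene lists. Dashed lines mark the shares over all genes tested, 26.6% rose and 26.3% fell. Contractile genes and lysyl oxidases reach furthest right, and lipid, adventitial marker and cell cycle genes furthest left.

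Signalling genes changed in both directions. Of 20 cytokine and chemokine genes tested, 6 rose and 10 fell with 5 libraries, and 3 and 5 with 6. Il11 went from 1.48, 1.65 and 0 to 22.3, 20.3 and 19.7 and Il6 from 3.23, 2.60 and 3.72 to 28.5, 22.5 and 25.2. Both passed in both fits, though Il11 with 6 libraries had an adjusted p of 0.0492. Il6ra, the receptor of interleukin 6, fell from 34.8, 33.7 and 31.1 to 5.56, 7.26 and 5.81. Lif rose by 3.17 with 5 libraries and did not pass with 6, where control 3 held no count. Complement genes fell in 8 of 14 cases with 5 libraries, with Serping1, C1s1 and C1ra at -1.91, -1.64 and -1.39, and rose in 2, among them Masp1 at 2.46, and with 6 libraries 4 fell and 1 rose.

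Among vasoactive and angiogenic genes, 15 of 38 rose and 18 fell with 5 libraries, and 8 and 13 with 6. Adm, adrenomedullin, a vasodilator peptide (chr7:110627661-110629820, plus strand), went from 327, 319 and 308 to 38.9, 39.0 and 37.8. It fell by 3.07 ± 0.05 on the log2 scale with 5 libraries and by 3.05 ± 0.11 with 6. Angpt2, a ligand of Tek, went from 67.5, 77.8 and 94.2 to 1.99, 1.19 and 1.75. The endothelin receptors went opposite ways: Ednra fell from 12.3, 14.0 and 12.1 to 2.50, 2.28 and 2.32, while Ednrb, at 0.156, 0.434 and 0 in control, stood at 8.98, 10.6 and 7.51. Ptprb, an endothelial phosphatase, rose from 16.7, 18.3 and 16.1 to 175, 192 and 183, in libraries where Pecam1 and Cdh5 were near 0. Of the other endothelial markers, Tek fell and the list's sum was lower with TGFβ, as given above, and Vwf was at 0.622, 0.520 and 0 in control and 0.408, 0.108 and 0.189 with TGFβ. Erg was at 0 in the 3 controls and at 2.81, 3.79 and 2.74 with TGFβ, and Kdr at 0.506, 0.954 and 0 in control and 1.22, 1.57 and 1.61 with TGFβ. The part of endothelial cells was not tested.

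Ada, adenosine deaminase (chr2:163726584-163750239, minus strand), went from 9.61, 11.01 and 10.3 to 135, 141 and 133, a log2 fold change of 3.73 ± 0.08 with 5 libraries and 3.72 ± 0.13 with 6. Of 13 adenosine and prostaglandin genes, 4 rose and 6 fell with 5 libraries, and 2 and 3 with 6. Ptgs2 (cyclooxygenase-2) rose by 3.49 while Ptgs1 and Ptges fell by 1.13 and 1.16, and all passed in both fits. Of detoxification and oxidant genes, 19 of 30 fell and 6 rose with 5 libraries, and 7 of 28 fell and 3 rose with 6. Fmo2, a flavin monooxygenase (chr1:162874317-162898726, minus strand), went from 52.4, 62.6 and 51.6 to 0.816, 0.650 and 0.614. Gstm1 fell by 2.08, with 18.9% of its 50-base exon sequences shared. Nox4, the NADPH oxidase, rose from 19.7, 23.1 and 51.4 to 139, 129 and 133.

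Genes of serine, glycine and proline synthesis, which supply the amino acids of collagen, rose in 16 of 20 cases and fell in 2 with 5 libraries, and 8 rose and 1 fell with 6. Slc7a5, Mthfd2, Slc1a4 and Aldh18a1 rose by 1.33, 1.18, 1.14 and 1.04 and passed in both fits. Glycolysis genes rose in 14 of 21 cases and fell in 2 with 5 libraries, with Hk2 at 1.87. With 6 libraries 2 rose and 0 fell, 9.52% of the list against 8.07% of all genes tested. Cholesterol and lipid genes fell in 22 of 27 cases and rose in 2 with 5 libraries, and 4 fell and 0 rose with 6. Lpl, lipoprotein lipase, and Abca1 fell by 1.94 and 1.48. Fabp4 fell by 1.28, and adipocyte markers summed to 42.1 to 68.8 in control and 31.8 to 47.6 with TGFβ. The part of adipocytes was not tested.

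Cell cycle genes fell in 25 of 32 cases and rose in 4 with 5 libraries, and 9 fell and 1 rose with 6. Ccnb1 and Ccnb2, mitotic cyclins, fell by 1.33 and 1.43 in the 5-library fit and passed with 6. Aurkb and Bub1b fell by 1.62 and 1.39 and did not pass with 6. The inhibitors Cdkn2b and Cdkn1a rose by 0.95 and 0.46, and only Cdkn1a passed with 6 libraries. Of 29 Wnt and Notch genes, 10 rose and 14 fell with 5 libraries, and 2 and 6 of 28 with 6. Wnt5a and Wnt10b rose by 2.41 and 2.82 and Sfrp4 and Daam2 fell by 3.23 and 3.96, and all passed in both fits. HOX genes, which carry positional identity, passed in 14 of 21 cases with 5 libraries, and in 1 with 6. Their log2 fold changes stayed within 0.78 in either direction among the members named here, Hoxc8 at 0.77 and Hoxa6 at -0.78.

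Of the 25 genes that the study names for these cultures, 12 rose and 12 fell with 5 libraries, and 12 and 10 of 24 with 6. This list was chosen by the study on these samples and is not independent evidence of its direction. Snx30 and Akap5 rose by 1.73 and 2.84, and Mcc and Rras2 fell by 1.88 and 1.08, and all passed in both fits. Klf4 fell by 0.81 with 5 libraries and 0.75 with 6 and passed in both fits, whereas Hoxb5 and Ptx3 (-0.62 and -0.73) passed with 5 libraries only.

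**Figure D4:**
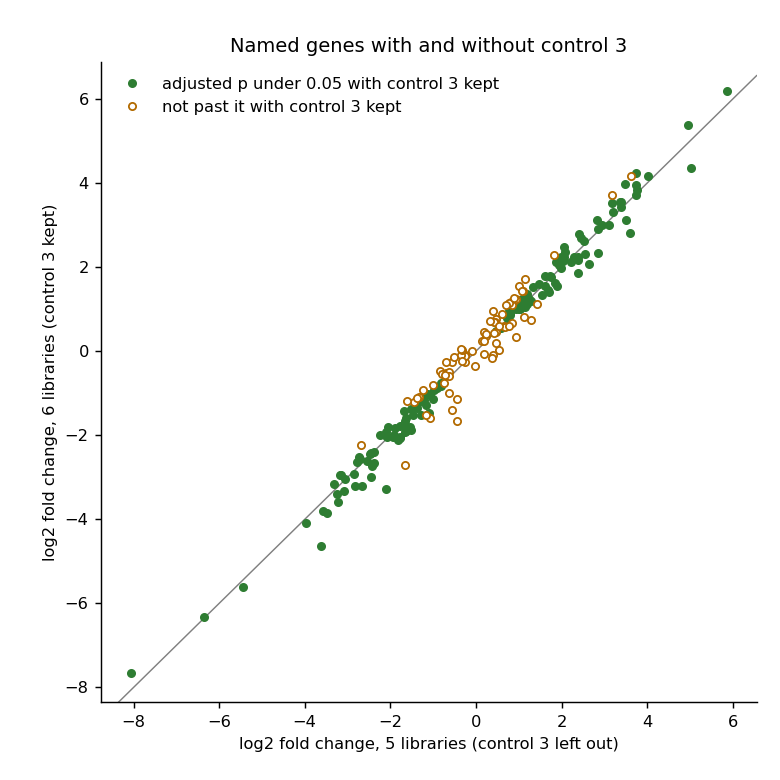
Log2 fold changes of the named genes with 5 libraries (x) and 6 libraries (y). Filled points passed with control 3 kept, open points did not, and the line marks equal values. Tgfbr1 (0.39 and -0.10) and Postn (0.37 and -0.17) are among the genes on opposite sides of 0 in the 2 fits.

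The response differed between descending and ascending fibroblasts for 2022 of 15013 genes with 11 libraries (13.5%) and for 118 of 14637 with 12 (0.806%), by the interaction of site and treatment. For Eln, ascending controls stood at 1548, 1593 and 1467 and ascending TGFβ cultures at 2872, 2463 and 2550.3, a log2 fold change of 0.77 ± 0.05 against 3.75 in descending cells. Descending controls lay far below the ascending ones, and descending TGFβ cultures, at 1641 to 1725, lay above the ascending controls and below the ascending TGFβ cultures. Tgm2 and Nrg1 also rose more in descending fibroblasts, by 2.20 and 2.05. Nkain4 fell by 2.44 in ascending fibroblasts and by 0.35 in descending ones.

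Postn, periostin, rose by 2.12 in ascending fibroblasts, from 149 to 162 to 665 to 673, and had a log2 fold change of 0.37 in descending ones, with descending control 3 at 992. Cxcl12 and Dkk2 fell in descending fibroblasts by 1.52 and 2.46 and had log2 fold changes of 0.22 and 0.44 in ascending ones. Ogn fell more in descending fibroblasts and Ltbp2 rose less. With 12 libraries, Eln, Tgm2, Postn, Cxcl12 and Dkk2 passed, and Nkain4, Nrg1, Ogn and Ltbp2 did not (adjusted p = 0.0603, 0.0942, 0.0727 and 0.552). The lists with at least 10 genes that passed in one direction with 11 libraries, a limit chosen after the values were seen, are given here. Of 32 cell cycle genes the difference was negative for 25 and positive for 3, and of 27 cholesterol and lipid genes it was negative for 10 and positive for none. Of 22 glycolysis genes it was positive for 15 and negative for none, and of 27 contractile genes positive for 13 and negative for 3. The lists of 38 vasoactive and angiogenic genes and of the 25 genes that the study names went both ways, with 11 and 10 positive and 8 and 6 negative differences. With 12 libraries, 3 of the vasoactive genes and 6 of the study's genes passed with a positive difference and 1 and 2 with a negative one. The edgeR test with 12 libraries called 0 cell cycle, lipid, glycolysis and contractile genes, where 19, 6, 6 and 7 had an unadjusted p under 0.05 and DESeq2 called 9, 0, 3 and 1. Over all genes with 12 libraries, 1464 of 14637 had an unadjusted p under 0.05 with edgeR, and DESeq2 called 419 of 27496. With 11 libraries the background was 7.40% of genes with a positive and 6.07% with a negative difference.

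**Figure D5:**
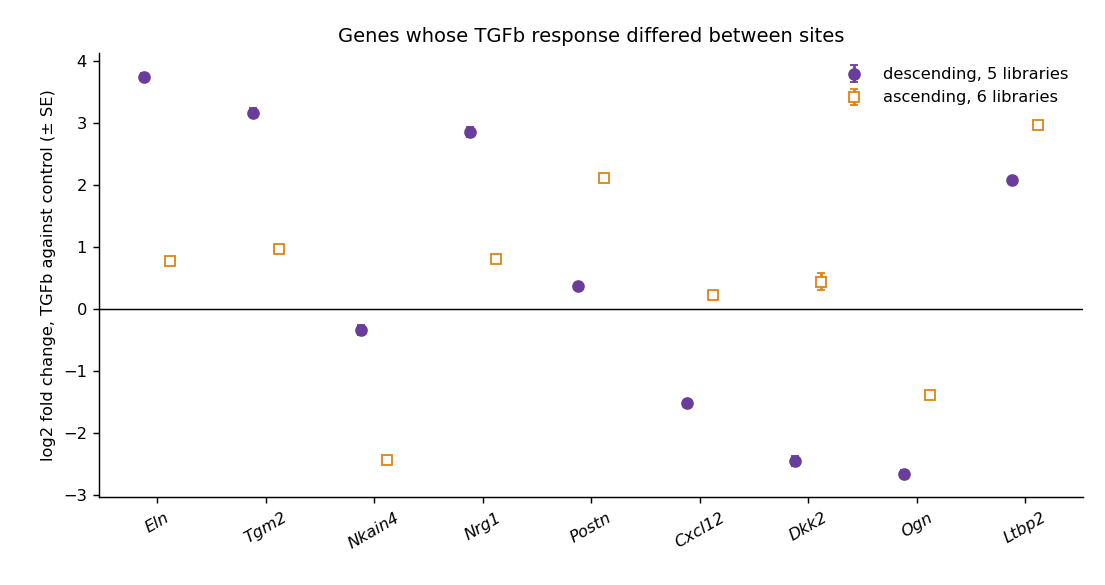
Log2 fold change (TGFβ against control, ± SE) of 9 genes from those with the smallest p for the difference between sites, in descending (5 libraries, filled circles) and ascending (6 libraries, open squares) fibroblasts. Eln, Tgm2 and Nrg1 lie higher in descending fibroblasts, Postn, Cxcl12 and Dkk2 lower.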

How the data were processed

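Total RNA of cultured descending and ascending aortic adventitial fibroblasts was sequenced in 12 libraries, 3 per group. The authors aligned reads to mm10 (STAR) and deposited the unnormalized featureCounts output, whole counts of reads for each symbol. The strand setting and the treatment of reads matching several genes are not given in the sources used here. The 54352 symbols include 22 that are numbers, kept as deposited. Groups came from the sample labels. Counts were fitted in R 4.3.3 with edgeR 4.0.16 (TMM, filterByExpr with a minimum count of 10 and total of 15, quasi-likelihood F-test, two-sided), and p-values were adjusted by Benjamini-Hochberg over all genes tested, with a threshold of 0.05. The standard error was the log2 fold change divided by the square root of F. DESeq2 1.42.0 and limma 3.58.1 served as alternatives. The 3 tools were checked on simulated counts in which 200 genes differed. With even libraries each missed some of the smallest changes, and DESeq2, which missed most, fell short of the limit first set, which was then replaced by a limit on larger changes. With a noisy control 3, edgeR and DESeq2 recovered far fewer genes from 6 libraries. A floor of 3 counts, 0.117 to 0.207 normalized CPM, covers counting error only.

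The members and gene lists were chosen with earlier results of these data known. Named genes were the 8 rising and 8 falling genes with the smallest p with 5 libraries that also passed with 6. To these were added up to 4 per direction and list with the largest change and a mean of at least 5 normalized CPM, the genes the study names, the TGFβ ligands, receptors and SMADs, and 5 per direction with the smallest p for the difference between sites. Marker genes were named as markers. Some genes that the rule names are not reported here, and counts keep them. Positions are from GENCODE vM21 (GRCm38). Shared sequence was the share of 50-base exon sequences found in another gene on either strand.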

Additional observations from a re-analysis of the deposited data

Results flagged for a closer look

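The response to TGFβ differed between descending and ascending fibroblasts by the interaction of site and treatment with 11 libraries. The difference, descending minus ascending on the log2 scale, was 2.98 for Eln, 2.20 for Tgm2, 2.09 for Nkain4 and 2.05 for Nrg1. It was -2.90 for Dkk2, -1.75 for Postn, -1.75 for Cxcl12, -1.27 for Ogn and -0.89 for Ltbp2. For Meox1 the fitted difference was -7.84, a value that depends on the prior count, since Meox1 was at 0 in all 3 ascending controls and at 1.51, 2.70 and 2.00 normalized CPM with TGFβ. The difference of Meox1 did not pass with 12 libraries (adjusted p = 0.0978). Groups of 3 libraries were not tested for outliers.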

How the results depend on the processing

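With 6 libraries, 1115 genes passed. The count was 2242 with DESeq2's Wald test, 7335 with limma voom and sample quality weights (which gave replicate 3 a weight of 0.0206), and 3570 in one fit with the ascending libraries. Leaving out single libraries gave 213 to 7576, the highest without control replicate 3, 213 to 218 without one TGFβ library, and 474 and 371 without control replicates 1 and 2. With 5 libraries, 7576 genes passed, 1909 with an absolute log2 fold change above 1, and 6169 to 7704 under the other alternatives that kept all 5. Leaving out one of these 5 gave 6338 to 7392. For the difference between sites, 118 genes passed with 12 libraries, 419 with DESeq2 and 56 with no filter, and single libraries left out gave 25 to 2022, the highest without descending control replicate 3. With 11 libraries 2022 passed, and 1362 to 1975 with one library left out.

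With the replicate number as a block, 95 genes passed with 6 libraries, 7168 with 5, 1 with 12 and 2030 with 11. The deviations of same-numbered cultures had correlations of -0.033 to 0.003 over 6 libraries and of 0.010 and 0.021 over 5, and the labels do not say whether a number marks a shared animal or day.

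Among the named genes, 5 changed sign between a fit that passed and the 6-library fit. Without control replicate 3, and with sample quality weights, the log2 fold changes were -0.32 and -0.36 for Entpd1, 0.19 and 0.18 for Hoxc6, 0.39 and 0.36 for Tgfbr1, -0.35 and -0.34 for Nkain4, and 0.37 and 0.35 for Postn. Leaving out each library in turn moved Entpd1, Hoxc6, Tgfbr1, Nkain4 and Postn, in this order, over -0.32 to 0.39, -0.16 to 0.19, -0.31 to 0.39, -0.35 to 0.36 and -0.37 to 0.37. Of the other comparisons of a named gene with an alternative, 34 lost the call with 5 libraries and 372 with 6, and 209 gained it with 6. The causes were not tested. Depth limits Scara5, Ednrb and Meox1, which lay at or near the floor in one group.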
